A study of Mus musculus with 24 samples.

Results

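The genes described here are 54 genes that act in mitosis, from the kinase that starts it to the motors, checkpoints and scaffolds that separate the chromosomes, followed in mouse lung after exposure to 6 carbon nanomaterials. They were listed by name from their known roles, with earlier results of these data known, and looked up among the 20738 genes that the array's annotation names. For 53 of the 54 a spot was found, and where a gene had several spots the one with the highest mean over all 24 samples was used. Ccnb1, which encodes cyclin B1, was not analysed here. Of those 53 genes, 51 passed the filter on low values, which asked for a value above the 40th percentile of the array in at least 3 samples; Aurkb and Ncapg did not, and their values are given without a test.

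Female C57BL/6 mice, 7 to 8 weeks old, received 10 µg of material a day in 50 µl of phosphate-buffered saline (PBS) by oropharyngeal aspiration, which delivers a drop to the throat for inhalation. Dosing ran for 4 days, and tissue was collected 24 h later. The 6 materials carry the names rCNT, tCNT, SES, BayTubes, Graphite and fullerene; the labels do not spell out the short codes. Control mice, called Ctrl, received PBS alone. Ctrl, rCNT, tCNT and SES had 3 samples per group, Graphite, BayTubes and fullerene had 4, and each sample held the pooled RNA of 2 mice of its group. The labels name no engineered allele, and the material was whole lung tissue, so more cells of a type and more RNA per cell cannot be told apart in any value below.

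A dividing cell enters mitosis when cyclin-dependent kinase 1 pairs with its cyclins, condenses its chromosomes, attaches them to the spindle through kinetochores, and waits for a checkpoint before the anaphase-promoting complex marks securin and cyclins for destruction. Most genes of this program are transcribed only late in the cell cycle, kept silent in resting cells by the DREAM complex and switched on by B-Myb and FoxM1, so their messenger RNA marks dividing cells. The healthy adult lung renews slowly and holds few dividing cells, while injury and inflammation can bring both resident and recruited cells into division.

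Values are the deposited log2 signals, and differences between groups are log2 differences with their standard errors (SE) from 1 limma fit over all 24 samples, in which dye and shared array were allowed for. They therefore depart slightly from plain differences of the printed values. A gene was called higher or lower at a Benjamini-Hochberg adjusted p under 0.05 over the 16519 genes tested, with a 2-sided test. Samples are numbered as in their titles and given in that order; the labels describe no separation of the samples beyond the pools of 2 mice, so p-values measure the spread between these samples. Arrays give no read counts, and the number of samples limits the precision. A signal near background understates a fold change, and signals of different genes were not compared with each other. Lung markers (Sftpc, Sftpb, Scgb1a1, Ager, Cldn18 and Nkx2-1) were above the 40th percentile in all 24 samples.

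Mitosis genes were called higher most often after rCNT, less often after BayTubes and tCNT, and at most once after the other 3 materials. After rCNT, 48 of the 51 tested members were higher than in Ctrl and 1 was lower, against 12.4% of all tested genes higher and 9.41% lower. Their median difference was 1.93, with all genes at a median of -0.02. After BayTubes, 34 members were higher and none lower (background 2.16% higher and 1.02% lower), with a median of 1.01. After tCNT, 11 were higher and none lower (background 0.684% higher and 0.0242% lower), with a median of 0.95. Graphite had 1 call, Cenpe (background 0.545% higher and 0.587% lower, median 0.63). SES had 0 calls by limma among the members and among all genes (background 0%); at an unadjusted p under 0.05 it had 24 members and 747 genes of all tested. Fullerene had 0 member calls (background 0.151% higher and 0.109% lower), with 32 members and 1993 genes at an unadjusted p under 0.05. The medians after SES and fullerene were 0.53 and 0.64, and 50 and 48 of the 51 differences were above 0.

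The filter kept 6 members that were not above the 40th percentile in every sample: Cdc25c, Ttk, Cenpf, Nuf2, Kif2c and Dlgap5. Cdc25c passed it in 11 samples, and Ttk and Cenpf in 7 each, so these could pass mainly through the group where they were high. Of the 45 members above it in all 24 samples, 42 were called higher after rCNT, 32 after BayTubes and 11 after tCNT.

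After rCNT, between 45 and 47 members were called when any one of its 3 samples or of the 3 Ctrl samples was left out, and 45 of the 49 genes kept their call in each of these 6 fits; Cenpf, Kif18a, Pttg1 and Ttk did not. The 34 calls after BayTubes became 18 without BayTubes 20, and 24, 23 and 23 without Ctrl 1, Ctrl 2 and Ctrl 3. Of the 34 genes, 16 kept their call in each of the 7 fits that left out 1 BayTubes or Ctrl sample. The 11 calls after tCNT became 28 without tCNT 7 and 0 without tCNT 8, without tCNT 9 or without any one Ctrl sample. The single call after Graphite became 7 without Graphite 14 and 9 without Graphite 15, and 0 without Graphite 13, without Graphite 16 or without any one Ctrl sample. With array as a fixed term, which leaves fewer residual comparisons, 32 members were called after rCNT and 0 after tCNT, BayTubes and Graphite. Slide 3 holds no Ctrl sample. Slide 1 holds 1 rCNT and 1 Ctrl sample, and slide 2 holds 1 rCNT and 1 BayTubes sample. Fits within a slide therefore cannot measure the spread in those groups. On slide 2 both Ctrl samples carried the dye Cy3, and rCNT 6 and BayTubes 20 carried Cy5. Group and dye separate there only through Graphite 13 and Graphite 14, and the spread comes from the 2 Ctrl samples alone.

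For each sample, the median over the 51 members of the log2 value minus the member's Ctrl mean gives 1 level. The Ctrl samples lay at -0.14, 0.01 and 0.10. The rCNT samples lay at 1.81, 1.85 and 2.09, above all other samples. The tCNT samples lay at 0.73, 1.19 and 0.98, and the BayTubes samples at 1.32, 0.51, 0.81 and 1.29. SES samples (0.54, 0.29 and 0.64), Graphite samples (0.86, 0.61, 0.40 and 0.45) and fullerene samples (1.15, 0.54, 0.41 and 0.24) were mostly lower, with fullerene 21 well above the other 3 of its group. Every exposed sample was above every Ctrl sample. In order, the group means were 1.92 ± 0.15 for rCNT (SD, n = 3), 0.98 ± 0.39 for BayTubes (n = 4), 0.97 ± 0.23 for tCNT (n = 3), 0.59 ± 0.39 for fullerene (n = 4), 0.58 ± 0.21 for Graphite (n = 4), 0.49 ± 0.18 for SES (n = 3) and -0.01 ± 0.12 for Ctrl (n = 3). BayTubes and tCNT overlapped, as did fullerene, Graphite and SES, and the lowest BayTubes sample, BayTubes 18, lay among the SES and Graphite samples.

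**Figure D1:**
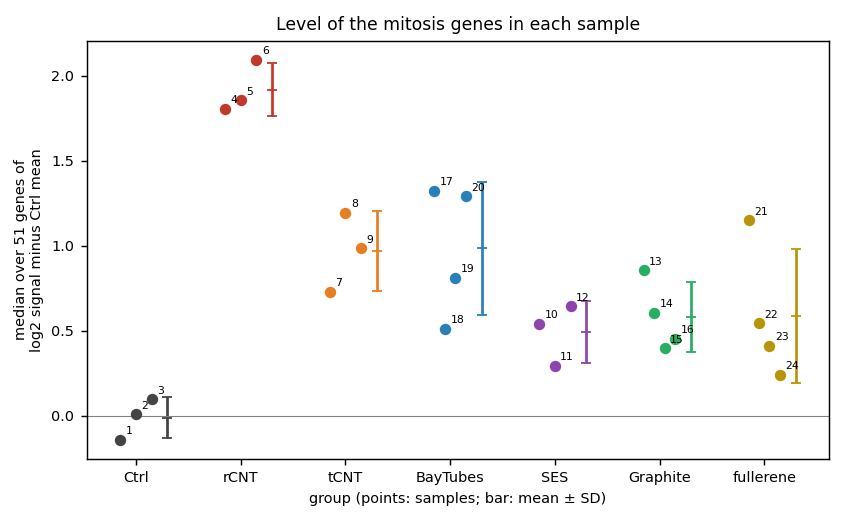
Median over 51 mitosis genes of the log2 value minus the gene's Ctrl mean (vertical axis, log2) in each of the 24 samples, by group, with bars for the group mean ± SD. The 3 rCNT samples sit between 1.81 and 2.09, above all others, and the Ctrl samples sit between -0.14 and 0.10.

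**Figure D2:**
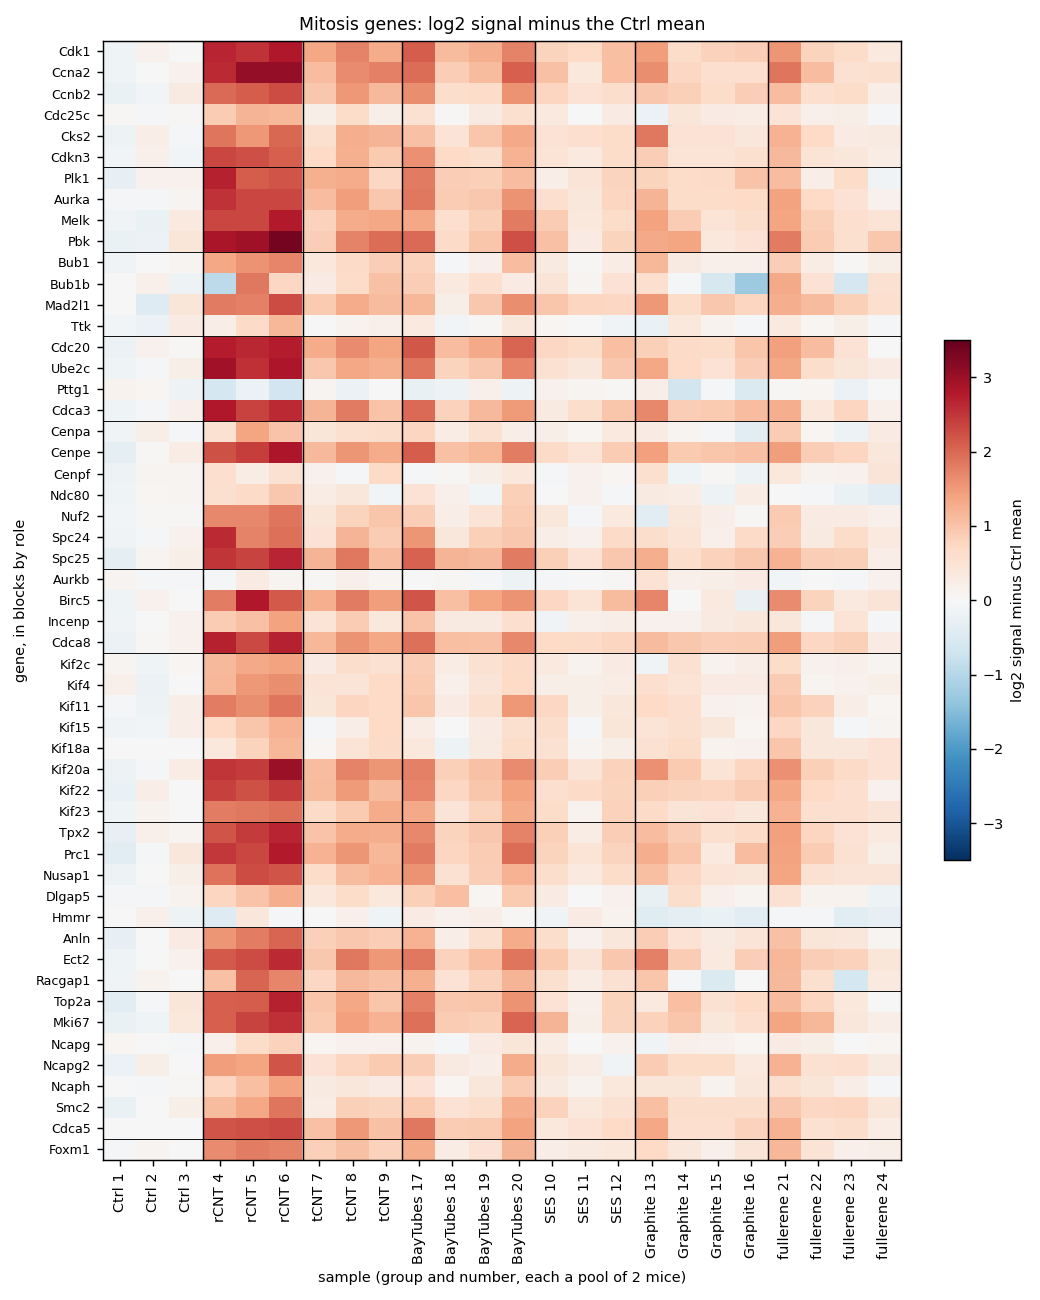
Colour shows log2 value minus the gene's Ctrl mean for the 53 mitosis genes with a spot, in rows grouped by role, in each of the 24 samples in columns grouped by material. The rCNT columns are the most deeply coloured, while the rows of Pttg1 and Hmmr do not share that rise.

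Gene by gene, the separation from Ctrl was wide. In 47 of the 51 members every rCNT sample lay above every Ctrl sample (18.9% of all tested genes did so), and in 1, Pttg1, every rCNT sample lay below. The same separation held for 45 members after tCNT (background 8.94%), 38 after BayTubes (6.54%), 33 after Graphite (9.41%), 31 after SES (7.25%) and 27 after fullerene (11.2%). In 35 members the lowest rCNT sample was above all 21 other samples, which held for 5.42% of all tested genes.

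Of the stretches of DNA around the transcription starts of these genes, 26 of the 44 at hand held both of 2 short motifs searched for. A few are printed because most members were called in 1 direction after rCNT; whether the motifs bear on that was not tested. Promoter windows from RefSeq, from 250 bases before to 50 after the start on GRCm38.p6, were found for 44 of the 54 members. Where a gene had several windows the first listed was used, and its other starts were not searched. The motifs searched on both strands were TTTGAA, the core of the cell cycle homology region bound by the DREAM complex and its relatives, and CCAAT, the core of the box bound by NF-Y. Capitals mark the matches, TTTGAA or its reverse complement TTCAAA and CCAAT or its reverse complement ATTGG, in the 120 bases before the start, written 5′ to 3′ along the gene's strand. The first 6 belong to members with the TTTGAA match near the start, and the last 2, Pttg1 and Birc5, to members whose window has neither motif.
Ube2c (chr2:164769809-164769928, plus strand): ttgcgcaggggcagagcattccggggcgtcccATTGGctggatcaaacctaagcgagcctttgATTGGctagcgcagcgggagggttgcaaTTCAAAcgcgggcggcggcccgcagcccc
Cdc20 (chr4:118437344-118437463, minus strand): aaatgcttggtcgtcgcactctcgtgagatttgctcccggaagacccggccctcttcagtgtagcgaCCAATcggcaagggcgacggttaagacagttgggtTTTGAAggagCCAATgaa
Kif22 (chr7:127042421-127042540, minus strand): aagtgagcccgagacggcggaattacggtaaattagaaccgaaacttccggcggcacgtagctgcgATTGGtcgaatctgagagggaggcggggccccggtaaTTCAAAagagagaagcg
Cdk1 (chr10:69352913-69353032, minus strand): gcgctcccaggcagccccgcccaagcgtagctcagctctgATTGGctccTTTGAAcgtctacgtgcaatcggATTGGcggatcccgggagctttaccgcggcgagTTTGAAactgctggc
Top2a (chr11:99024190-99024309, minus strand): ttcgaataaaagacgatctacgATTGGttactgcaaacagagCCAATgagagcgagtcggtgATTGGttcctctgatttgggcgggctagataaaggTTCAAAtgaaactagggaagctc
Kif11 (chr19:37376262-37376381, plus strand): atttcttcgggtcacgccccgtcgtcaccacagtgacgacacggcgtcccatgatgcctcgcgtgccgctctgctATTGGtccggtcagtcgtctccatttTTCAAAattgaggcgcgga
Pttg1 (chr11:43425982-43426101, minus strand): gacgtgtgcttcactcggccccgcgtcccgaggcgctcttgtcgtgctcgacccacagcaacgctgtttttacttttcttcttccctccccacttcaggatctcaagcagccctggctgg
Birc5 (chr11:117849117-117849236, plus strand): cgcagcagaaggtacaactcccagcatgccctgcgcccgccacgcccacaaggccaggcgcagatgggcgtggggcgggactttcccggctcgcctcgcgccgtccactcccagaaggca

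In these windows TTTGAA was present in 32 of 44 members (72.7%), against 18.1% of all 27025 windows and 13.0% of the windows of tested genes. CCAAT was present in 30 (68.2%), against 37.9% of all windows, and both in 26 (59.1%), against 7.12%. Matches of 1 motif overlapped those of the other once among the members. TTTGAA lay within 50 bases of the start in 65.9% of the members' windows and in 4.92% of all windows. Cdk1, the kinase that drives entry into mitosis, had TTTGAA matches whose first bases lay at -71 and -15 from its start, and Ube2c, which carries ubiquitin for the anaphase-promoting complex, had 1 at -29. The windows of Nuf2, Kif18a, Nusap1, Ncaph, Melk, Mad2l1, Pttg1 and Birc5 had neither motif. Among tested members the median difference after rCNT was 2.10 for the 31 with TTTGAA and 1.79 for the 11 without, so members rose with and without it. Of these 8 genes, only Pttg1 was lower after rCNT, and Birc5 and Melk were among the more strongly raised members at 2.35 ± 0.41 and 2.47 ± 0.30. A match describes these letters only; binding was not measured.

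**Figure D3:**
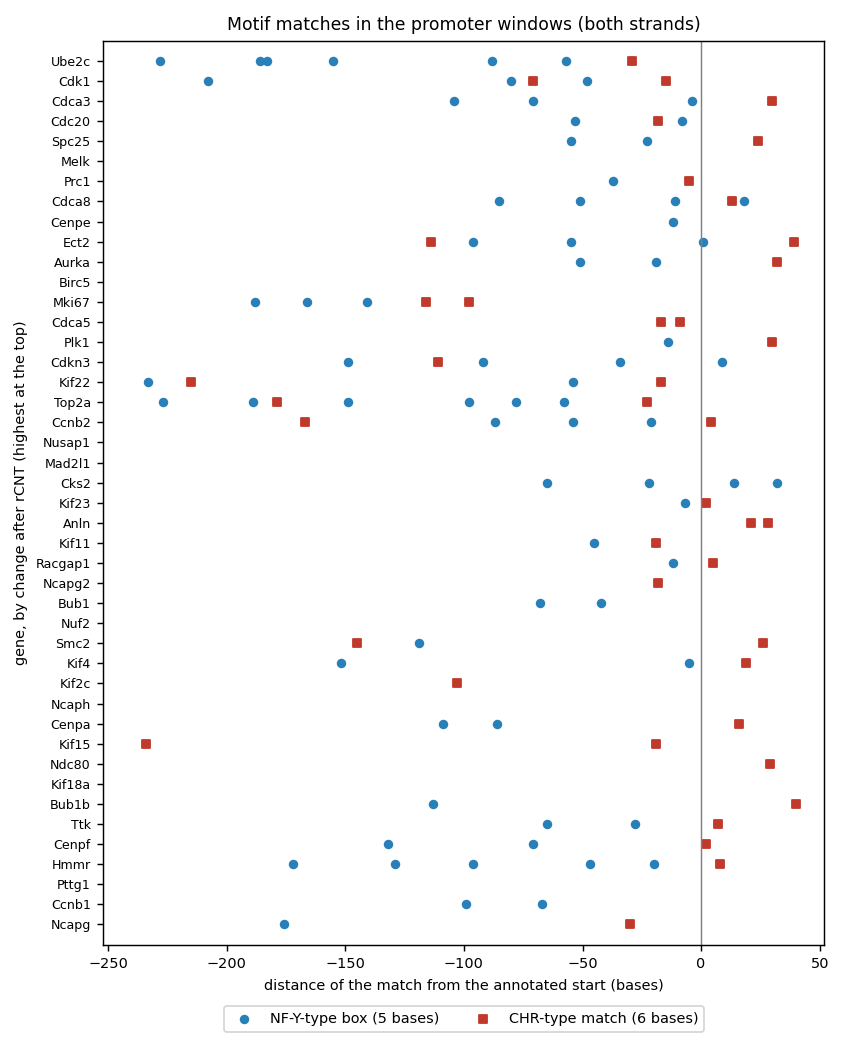
Distance in bases from the transcription start (horizontal axis) of each TTTGAA and CCAAT match in the promoter windows of 44 mitosis genes, ordered by their log2 change after rCNT, with the 2 genes that have no tested change at the bottom. The TTTGAA matches crowd around the start and the CCAAT matches lie mostly before it.

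Entry into mitosis is driven by Cdk1 with its cyclins, and all 6 tested genes of this step rose after rCNT, with a median of 2.14. Cdk1 read 6.49, 6.80 and 6.62 in Ctrl and 9.30, 9.18 and 9.43 after rCNT. Cdk1 values were 7.98, 8.38 and 7.92 after tCNT and 8.75, 7.75, 7.90 and 8.38 after BayTubes. Cdk1 reached 7.41, 7.32 and 7.69 after SES, 8.09, 7.29, 7.45 and 7.50 after Graphite and 8.17, 7.42, 7.27 and 6.97 after fullerene. Each exposed sample was above each Ctrl sample, and the rCNT samples were above all others. The fitted difference was 2.60 ± 0.29 after rCNT, a 6.06-fold change, with an adjusted p of 4.95e-06 by limma; the differences of 0.96 ± 0.26 after Graphite and 0.87 ± 0.27 after fullerene had adjusted p-values of 0.0652 and 0.233.

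Ccnb2, a B-type cyclin that activates Cdk1, read 8.45, 8.59 and 9.00 in Ctrl and 10.68, 10.80 and 10.97 after rCNT. Ccnb2 read 9.61, 10.20 and 9.80 after tCNT and 10.30, 9.29, 9.32 and 10.26 after BayTubes. Ccnb2 reached 9.44, 9.17 and 9.30 after SES, 9.63, 9.51, 9.31 and 9.53 after Graphite and 9.75, 9.26, 9.32 and 8.92 after fullerene. Fullerene 24 was the only exposed sample within the Ctrl range. Its difference was 2.10 ± 0.26 after rCNT, 1.23 ± 0.26 after tCNT and 1.14 ± 0.22 after BayTubes, all called. Ccna2, the A-type cyclin of S phase and early mitosis, read 7.56, 7.73 and 7.87 in Ctrl and 10.33, 10.78 and 10.78 after rCNT, a difference of 2.89 ± 0.38 (7.41-fold). Ccna2 showed 8.73, 8.08 and 8.78 after SES, with the highest fitted change there (0.91 ± 0.37, adjusted p = 0.976). Ccna2 came to 8.79, 9.38 and 9.47 after tCNT and 9.68, 8.58, 8.84 and 9.80 after BayTubes, and to 9.35, 8.44, 8.32 and 8.31 after Graphite and 9.59, 8.80, 8.25 and 8.29 after fullerene. No exposed sample overlapped Ctrl, although the change after SES was not called.

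Cdc25c, the phosphatase that switches Cdk1 on, was dim. Cdc25c read 5.46, 5.35 and 5.46 in Ctrl and 6.32, 6.61 and 6.59 after rCNT. Cdc25c stayed between 5.22 and 6.06 in the others, with 5.63, 6.06 and 5.64 after tCNT, 5.76, 5.43 and 5.72 after SES and 5.97, 5.45, 5.73 and 5.98 after BayTubes and with 5.22, 5.84, 5.71 and 5.70 after Graphite and 5.91, 5.61, 5.63 and 5.35 after fullerene. All rCNT samples exceeded the rest, and the difference was 0.96 ± 0.17, with no call for any other material. Cks2, a small subunit bound to Cdk1, rose by 1.79 ± 0.30 after rCNT and 1.01 ± 0.25 after BayTubes, with 1 Graphite sample, Graphite 13, at 8.55 and the other 3 between 7.11 and 7.21. Cdkn3, a phosphatase that acts on cyclin-dependent kinases, rose by 2.17 ± 0.26 and 1.04 ± 0.21 after the same materials.

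The other 4 mitotic kinases all rose after rCNT (median 2.41) and after BayTubes. Plk1, which drives centrosome maturation and many later steps, read 8.44, 8.87 and 8.86 in Ctrl and 11.41, 10.85 and 10.92 after rCNT. Plk1 read 9.97, 10.02 and 9.45 after tCNT and 10.54, 9.58, 9.56 and 9.79 after BayTubes. Plk1 reached 8.95, 9.18 and 9.50 after SES, 9.50, 9.35, 9.39 and 9.71 after Graphite and 9.79, 8.95, 9.36 and 8.60 after fullerene. Fullerene 24 was again within the Ctrl range. Plk1 differed from Ctrl by 2.21 ± 0.28 after rCNT and by 1.05 ± 0.23 after BayTubes (adjusted p = 0.0113), while 1.05 ± 0.27 after tCNT missed the threshold (adjusted p = 0.0873).

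Aurka, the kinase of the spindle poles, read 7.71, 7.72 and 7.86 in Ctrl, 10.29, 10.10 and 10.11 after rCNT and 8.84, 9.22 and 8.71 after tCNT. Aurka reached 8.34, 8.15 and 8.52 after SES and 9.61, 8.65, 8.70 and 9.32 after BayTubes, and 8.95, 8.39, 8.40 and 8.46 after Graphite and 9.18, 8.46, 8.26 and 7.90 after fullerene. Each exposed sample was above Ctrl, and Aurka was the only 1 of the 4 called after tCNT (1.20 ± 0.28, adjusted p = 0.0491). Pbk, a kinase active in dividing cells, had the highest change of all members after rCNT, 2.98 ± 0.42 or 7.88-fold. Pbk read 6.09, 6.13 and 6.75 in Ctrl, 9.18, 9.28 and 9.67 after rCNT and 8.15, 7.21, 6.88 and 7.26 after fullerene, where its change of 1.07 ± 0.39 was also the highest, without a call (adjusted p = 0.286). Pbk came to 7.17, 8.06 and 8.27 after tCNT and 8.30, 7.00, 7.29 and 8.58 after BayTubes, and to 7.34, 6.61 and 7.10 after SES and 7.64, 7.70, 6.70 and 6.83 after Graphite. The tCNT, BayTubes and fullerene samples did not overlap Ctrl, but Ctrl 3 at 6.75 lay above the other 2 Ctrl samples and overlapped SES and Graphite. Melk, a kinase of proliferating cells, rose by 2.47 ± 0.30 after rCNT and 1.23 ± 0.24 after BayTubes.

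The spindle checkpoint holds back anaphase until every chromosome is attached, and its 4 genes were uneven. Mad2l1, which binds and blocks Cdc20, read 8.15, 7.69 and 8.57 in Ctrl and 9.94, 9.89 and 10.42 after rCNT. Mad2l1 read 9.10, 8.89 and 8.86 after SES, 9.65, 8.77, 9.08 and 8.90 after Graphite and 9.41, 9.23, 8.96 and 8.74 after fullerene. Mad2l1 came to 9.05, 9.43 and 9.25 after tCNT and 9.30, 8.33, 9.08 and 9.75 after BayTubes. All exposed samples were above Ctrl except BayTubes 18 at 8.33. Its difference was 1.93 ± 0.26 after rCNT and 1.01 ± 0.22 after BayTubes. Mad2l1 had the smallest p of any member after fullerene (0.95 ± 0.24, adjusted p = 0.147) and after SES (0.82 ± 0.26, adjusted p = 0.775), and neither passed. After Graphite its 0.96 ± 0.23 came to an adjusted p of 0.0506.

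Bub1, the kinase that builds the checkpoint at kinetochores, rose by 1.56 ± 0.28 after rCNT, where it was higher than after 4 of the other 5 materials, and had no other call against Ctrl. Ttk, the kinase that starts the checkpoint, was dim. Ttk read 5.35, 5.22 and 5.72 in Ctrl and 5.67, 6.11 and 6.60 after rCNT. Ttk lay between 5.19 and 5.82 in the others, with 5.44, 5.55 and 5.60 after tCNT, 5.50, 5.43 and 5.30 after SES and 5.76, 5.34, 5.46 and 5.82 after BayTubes and with 5.19, 5.80, 5.54 and 5.38 after Graphite and 5.78, 5.51, 5.64 and 5.35 after fullerene. The rCNT and Ctrl ranges overlapped, and the difference of 0.60 ± 0.18 passed with an adjusted p of 0.0245.

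Bub1b, which encodes BubR1, a part of the checkpoint complex, was not called after any material. Bub1b read 7.08, 7.26 and 6.89 in Ctrl and 6.17, 8.93 and 7.80 after rCNT, so the rCNT samples spanned from below to far above Ctrl. Bub1b read 7.67, 7.00, 6.53 and 5.80 after Graphite and 8.40, 7.59, 6.49 and 7.60 after fullerene, again with low samples. Bub1b reached 7.37, 7.73 and 8.11 after tCNT, 7.53, 7.16 and 7.58 after SES and 7.93, 7.43, 7.67 and 7.37 after BayTubes, with the tCNT and BayTubes samples above Ctrl and SES overlapping it. The low values, rCNT 4, Graphite 15, Graphite 16 and fullerene 23, were the 4 samples of arrays 1 and 2 on slide 1, and on average they lay 1.48 below the rest of their groups. With all samples the difference after rCNT was 0.60 ± 0.47 (adjusted p = 0.383); without arrays 1 and 2, a choice made after seeing these values, it was 1.22 (adjusted p = 0.0105). The sign turned to -0.10 without rCNT 5 and to -1.04 within slide 1. Within arrays, where both samples share the hybridisation, Bub1b was higher in the first of all 6 pairs described further on, by 0.167 to 0.804.

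Ubiquitin-dependent exit from mitosis held the only member that fell, beside 3 that rose to give a median of 2.55 over the 4 after rCNT. Cdc20, the activator of the anaphase-promoting complex, read 9.11, 9.46 and 9.36 in Ctrl and 12.07, 11.96 and 12.05 after rCNT. Cdc20 read 10.61, 10.97 and 10.69 after tCNT and 11.47, 10.38, 10.63 and 11.35 after BayTubes. Cdc20 read 10.05, 9.94 and 10.36 after SES, 10.16, 9.97, 9.95 and 10.28 after Graphite and 10.74, 10.39, 9.82 and 9.29 after fullerene, where fullerene 24 fell within the Ctrl range. Its change of 1.58 ± 0.25 was the highest of any member after BayTubes.

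Ube2c, the ubiquitin-carrying enzyme of the same complex, read 7.80, 7.91 and 8.15 in Ctrl and 10.90, 10.50 and 10.80 after rCNT. Ube2c read 8.89, 9.31 and 9.19 after tCNT and 9.82, 8.74, 8.88 and 9.66 after BayTubes. Ube2c read 8.49, 8.35 and 8.90 after SES, 9.32, 8.65, 8.47 and 8.82 after Graphite and 9.30, 8.56, 8.36 and 8.24 after fullerene. No exposed sample overlapped Ctrl, and the rCNT samples stood apart from the rest. Ube2c changed by 6.6-fold after rCNT, while 1.20 ± 0.31 after tCNT had an adjusted p of 0.0846. Cdca3, which triggers destruction of mitosis-entry regulators, read 7.44, 7.53 and 7.77 in Ctrl and 9.25, 8.43, 8.49 and 8.65 after Graphite, the highest change there (1.13 ± 0.28, adjusted p = 0.0542). Cdca3 reached 10.38, 9.95 and 10.20 after rCNT, 8.78, 9.40 and 8.57 after tCNT and 9.57, 8.38, 8.72 and 9.08 after BayTubes, and 7.90, 8.19 and 8.56 after SES and 8.86, 7.94, 8.33 and 7.76 after fullerene. Only fullerene 24 overlapped Ctrl, and the gene rose by 2.57 ± 0.32 after rCNT.

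Pttg1 encodes securin, the inhibitor of separase that must be destroyed before sister chromatids part. Pttg1 read 13.41, 13.36 and 13.11 in Ctrl and 12.67, 13.09 and 12.63 after rCNT. Pttg1 values were 13.38, 13.08 and 13.31 after tCNT, 13.43, 13.40 and 13.33 after SES and 13.03, 13.12, 13.47 and 13.11 after BayTubes. Pttg1 values were 13.52, 12.64, 13.26 and 12.79 after Graphite and 13.34, 13.37, 13.09 and 13.32 after fullerene. Each rCNT sample was below each Ctrl sample, and Graphite ranged from below to above Ctrl. The gene fell by 0.45 on the log2 scale after rCNT with an SE of 0.16 and an adjusted p of 0.045. Its other spot also differed by -0.47. Leaving out arrays 1 and 2 gave -0.35 (adjusted p = 0.162), which ended the call, and within arrays rCNT 5, rCNT 4 and rCNT 6 differed from their partners by -0.25, -0.12 and -0.01.

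All 7 tested genes of the centromere and kinetochore rose after rCNT, with a median of 1.55. Cenpe, a kinesin that carries chromosomes to the spindle equator, was the only member called after 4 materials. Cenpe read 7.41, 7.78 and 8.00 in Ctrl and 9.96, 10.16 and 10.55 after rCNT. Cenpe read 8.87, 9.28 and 9.03 after tCNT and 9.84, 8.75, 8.88 and 9.52 after BayTubes. Cenpe reached 8.40, 8.21 and 8.63 after SES, 9.16, 8.64, 8.69 and 8.75 after Graphite and 9.18, 8.58, 8.49 and 8.12 after fullerene. Each exposed sample was above each Ctrl sample. The change was 2.44 ± 0.30 after rCNT, 1.33 ± 0.30 after tCNT, 1.49 ± 0.25 after BayTubes and 1.11 ± 0.26 after Graphite, the last with an adjusted p of 0.0451; the call was lost with array as a fixed term, with array weights and without the array block.

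Spc25 and Spc24, partners in the Ndc80 complex that grips microtubules, rose by 2.53 ± 0.30 and 2.00 ± 0.28 after rCNT. Spc25 read 8.15, 8.58 and 8.68 in Ctrl, 9.65, 10.31 and 9.55 after tCNT and 10.54, 9.65, 9.60 and 10.29 after BayTubes. Spc25 reached 10.97, 10.82 and 11.13 after rCNT and 9.30, 8.98 and 9.41 after SES, and 9.75, 9.08, 9.27 and 9.42 after Graphite and 9.68, 9.32, 9.30 and 8.70 after fullerene. No exposed sample overlapped Ctrl. Its change after tCNT (1.44 ± 0.29, adjusted p = 0.0272) and BayTubes (1.56 ± 0.24, adjusted p = 0.00106) was among the 3 of smallest p in both. Ndc80 itself read 6.66, 6.86 and 6.88 in Ctrl and 7.35, 7.47 and 7.74 after rCNT. Ndc80 came to 7.07, 7.20 and 6.70 after tCNT, 6.79, 6.95 and 6.72 after SES and 7.31, 6.97, 6.71 and 7.64 after BayTubes, and to 7.13, 7.05, 6.61 and 7.07 after Graphite and 6.83, 6.74, 6.56 and 6.40 after fullerene. It overlapped Ctrl after each material but rCNT, where it rose by 0.73 ± 0.19, and it differed between rCNT and another material in 1 of 5 pairs. Cenpa, the histone variant that marks centromeres, read 8.34, 8.67 and 8.39 in Ctrl and 9.01, 9.84 and 9.46 after rCNT, a difference of 0.90 ± 0.22. Cenpa came to 8.88, 9.03 and 9.08 after tCNT, 8.68, 8.53 and 8.82 after SES and 9.23, 8.72, 8.99 and 8.71 after BayTubes, and to 8.75, 8.57, 8.41 and 8.10 after Graphite and 9.35, 8.52, 8.28 and 8.74 after fullerene. Cenpa after rCNT lay above Ctrl but overlapped tCNT, BayTubes and fullerene samples. Nuf2, another subunit of that complex, rose by 1.55 ± 0.23 after rCNT, and the dim Cenpf, a large kinetochore protein, by 0.48 ± 0.15 (adjusted p = 0.0292); the Cenpf call was lost without arrays 1 and 2 (0.45, adjusted p = 0.0706).

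The chromosomal passenger complex corrects faulty attachments and guides cytokinesis, and its 3 tested genes rose after rCNT (median 2.35). Cdca8, which encodes borealin, had the smallest p of all members after rCNT, tCNT and BayTubes. Cdca8 read 7.89, 8.14 and 8.26 in Ctrl and 10.79, 10.40 and 10.79 after rCNT. Cdca8 read 9.26, 9.66 and 9.46 after tCNT and 10.02, 9.14, 9.14 and 9.77 after BayTubes. Cdca8 read 8.81, 8.76 and 8.85 after SES, 9.21, 9.05, 8.97 and 9.00 after Graphite and 9.56, 8.82, 8.93 and 8.40 after fullerene. All exposed samples lay above Ctrl. The change was 2.44 ± 0.26 (adjusted p = 3.33e-06) after rCNT, 1.34 ± 0.26 (0.0203) after tCNT and 1.41 ± 0.21 (0.000934) after BayTubes. Graphite and fullerene gave 0.92 ± 0.23 and 0.84 ± 0.24, with adjusted p-values of 0.0542 and 0.205.

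Birc5, which encodes survivin, read 9.09, 9.39 and 9.20 in Ctrl and 11.03, 12.02 and 11.37 after rCNT. Birc5 read 11.42, 10.29, 10.61 and 10.80 after BayTubes and 10.93, 9.24, 9.56 and 8.97 after Graphite, where 1 sample, Graphite 13, was far above the other 3. Birc5 reached 10.47, 11.04 and 10.69 after tCNT, 9.96, 9.70 and 10.33 after SES and 10.90, 10.00, 9.56 and 9.68 after fullerene. Every exposed sample outside Graphite was above Ctrl. Birc5 rose by 2.35 ± 0.41 after rCNT and 1.58 ± 0.34 after BayTubes. Within slide 2 the BayTubes difference was -0.08, in a fit where group and dye separate only through Graphite 13 and Graphite 14. On this spot the samples of arrays 1 and 2 lay 0.73 below the rest of their groups, and on the gene's other spots 0.12 and 0.24 below. Incenp, the scaffold of the complex, rose by 1.08 ± 0.20 after rCNT, where it was higher than after 3 of the other 5 materials. Aurkb, its kinase, was not above the 40th percentile in any sample. Aurkb read 5.25, 5.11 and 5.11 in Ctrl and 5.12, 5.43 and 5.26 after rCNT. Aurkb came to 5.19, 5.32 and 5.21 after tCNT, 5.08, 5.13 and 5.20 after SES and 5.18, 5.20, 5.12 and 4.97 after BayTubes, and to 5.67, 5.34, 5.37 and 5.46 after Graphite and 5.07, 5.15, 5.11 and 5.32 after fullerene. The Graphite samples were above Ctrl and those of the other materials overlapped it, and these values say nothing about the kinase beyond a signal near background.

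Kinesin motors move chromosomes and slide spindle fibres, and all 8 tested rose after rCNT (median 1.52), with 5 after BayTubes and 2 after tCNT. Kif11, the motor that pushes the spindle poles apart, read 6.12, 5.98 and 6.40 in Ctrl and 7.97, 7.79 and 8.04 after rCNT. Kif11 read 6.60, 6.92 and 6.87 after tCNT and 7.13, 6.44, 6.73 and 7.69 after BayTubes. Kif11 reached 6.89, 6.38 and 6.57 after SES, 6.87, 6.75, 6.31 and 6.29 after Graphite and 7.13, 6.97, 6.40 and 6.23 after fullerene. The rCNT, tCNT and BayTubes samples were all above Ctrl, while SES, Graphite and fullerene overlapped it. The differences were 1.71 ± 0.26 after rCNT, 0.88 ± 0.21 after BayTubes and 0.70 ± 0.25 after tCNT, the last not called (adjusted p = 0.32).

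Kif20a, a motor of the central spindle and cytokinesis, read 6.85, 6.98 and 7.29 in Ctrl and 9.54, 9.48 and 10.05 after rCNT. Kif20a read 8.12, 8.76 and 8.58 after tCNT and 8.81, 7.87, 8.08 and 8.69 after BayTubes. Kif20a read 7.91, 7.49 and 7.84 after SES, 8.64, 7.97, 7.53 and 7.79 after Graphite and 8.64, 7.87, 7.70 and 7.56 after fullerene. No exposed sample overlapped Ctrl. The rise was 2.61 ± 0.33 after rCNT, 1.51 ± 0.33 after tCNT and 1.37 ± 0.27 after BayTubes, all called. Kif22, which pushes chromosome arms outward, was the other kinesin called after tCNT (1.16 ± 0.25) and rose by 2.17 ± 0.25 after rCNT. The dimmer Kif2c (1.14 ± 0.17), Kif15 (0.89 ± 0.22) and Kif18a (0.67 ± 0.22), with Kif4 at 1.32 ± 0.19 and Kif23 at 1.76 ± 0.25, completed the rise after rCNT. Kif2c and Kif23 also rose after BayTubes.

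Among 5 factors that build and bundle the spindle, 4 rose after rCNT and BayTubes, and the median after rCNT was 2.05. Tpx2, which nucleates spindle microtubules and activates Aurora A, read 6.55, 7.01 and 6.92 in Ctrl and 9.04, 9.28 and 9.50 after rCNT. Tpx2 read 7.82, 8.12 and 8.11 after tCNT and 8.52, 7.61, 7.77 and 8.57 after BayTubes. Tpx2 reached 7.66, 7.10 and 7.69 after SES, 7.92, 7.69, 7.38 and 7.50 after Graphite and 8.27, 7.58, 7.33 and 7.17 after fullerene. No exposed sample overlapped Ctrl. The change was 2.36 ± 0.29 after rCNT and 1.28 ± 0.24 after BayTubes, while 1.24 ± 0.29 after tCNT had an adjusted p of 0.0523. Prc1 and Nusap1, which bundle microtubules, rose by 2.45 ± 0.33 and 2.05 ± 0.28 after rCNT, and Dlgap5, a stabiliser of kinetochore fibres, by 0.99 ± 0.21.

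Hmmr, which helps organise spindle poles and also serves as a hyaluronan receptor, did not follow the others. Hmmr read 9.51, 9.69 and 9.32 in Ctrl and 9.05, 9.91 and 9.47 after rCNT. Hmmr read 9.07, 9.17, 9.27 and 9.10 after Graphite and 9.44, 9.47, 9.10 and 9.23 after fullerene. Hmmr came to 9.53, 9.67 and 9.35 after tCNT, 9.39, 9.81 and 9.64 after SES and 9.78, 9.64, 9.75 and 9.55 after BayTubes. All Graphite samples were below Ctrl, and the rCNT samples lay on both sides of it. The fitted differences were -0.07 ± 0.17 after rCNT (adjusted p = 0.802), with a sign that turned when rCNT 4 (0.12) or Ctrl 2 (0.03) was left out, and -0.33 ± 0.15 after Graphite (adjusted p = 0.21), the lowest of any member there.

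The 3 cytokinesis genes rose after rCNT with a median of 1.72. Anln, which encodes anillin, the scaffold of the contractile ring, read 8.37, 8.64 and 8.93 in Ctrl and 10.19, 10.43 and 10.67 after rCNT. Anln read 9.49, 9.60 and 9.51 after tCNT and 9.87, 8.87, 9.20 and 9.94 after BayTubes. Anln reached 9.27, 8.80 and 9.03 after SES, 9.51, 9.14, 8.97 and 9.09 after Graphite and 9.69, 9.07, 9.04 and 8.73 after fullerene. The rCNT, tCNT and Graphite samples were above Ctrl, and BayTubes 18 at 8.87 was within the Ctrl range. Anln rose by 1.72 ± 0.26 after rCNT and 0.81 ± 0.21 after BayTubes.

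Ect2, the exchange factor that activates RhoA at the division plane, read 6.91, 7.05 and 7.19 in Ctrl and 9.19, 9.33 and 9.65 after rCNT. Ect2 read 8.00, 8.90 and 8.56 after tCNT and 8.90, 7.85, 8.09 and 8.92 after BayTubes. Ect2 read 7.97, 7.50 and 7.99 after SES, 8.80, 7.95, 7.40 and 7.92 after Graphite and 8.20, 7.91, 7.86 and 7.47 after fullerene. No exposed sample overlapped Ctrl. Its change of 1.57 ± 0.35 was the highest after tCNT, and it was called there as well as after rCNT (2.42 ± 0.35) and BayTubes (1.49 ± 0.29). Racgap1, the partner that recruits Ect2 to the central spindle, rose by 1.58 ± 0.34 after rCNT; on this spot the samples of arrays 1 and 2 lay 0.90 below the rest of their groups, and every rCNT sample was still above Ctrl.

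All 6 tested genes of chromosome structure rose after rCNT (median 1.86). Top2a, the topoisomerase that untangles sister chromatids, read 6.60, 6.91 and 7.39 in Ctrl and 9.05, 9.10 and 9.66 after rCNT. Top2a read 7.93, 8.32 and 7.95 after tCNT and 8.73, 7.92, 7.94 and 8.54 after BayTubes. Top2a reached 7.48, 7.16 and 7.75 after SES, 7.32, 8.02, 7.51 and 7.65 after Graphite and 8.07, 7.72, 7.34 and 6.98 after fullerene. The rCNT, tCNT and BayTubes samples were above Ctrl, while SES, Graphite and fullerene overlapped it. The differences were 2.15 ± 0.29 after rCNT and 1.24 ± 0.23 after BayTubes. Mki67, whose protein Ki-67 coats mitotic chromosomes and is the usual stain for dividing cells, read 9.27, 9.36 and 9.87 in Ctrl and 11.60, 11.88 and 12.06 after rCNT. Mki67 read 10.42, 10.93 and 10.71 after tCNT and 11.44, 10.39, 10.34 and 11.53 after BayTubes. Mki67 reached 10.69, 9.71 and 10.29 after SES, 10.31, 10.47, 9.91 and 10.08 after Graphite and 10.88, 10.65, 9.90 and 9.72 after fullerene. The tCNT, BayTubes and Graphite samples were above Ctrl, and BayTubes 17 and BayTubes 20 came close to the lowest rCNT sample. Mki67 rose by 2.28 ± 0.34 after rCNT and 1.45 ± 0.28 after BayTubes, with 1.29 ± 0.34 after tCNT short of the threshold (adjusted p = 0.0873).

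Cdca5, which encodes sororin, the protector of cohesion between sister chromatids, rose by 2.25 ± 0.26 after rCNT, 1.20 ± 0.26 after tCNT and 1.29 ± 0.22 after BayTubes. Smc2, a core subunit of condensin, read 7.91, 8.16 and 8.35 in Ctrl and 9.09, 8.85, 8.88 and 8.57 after fullerene, where its 0.74 ± 0.22 (adjusted p = 0.222) was among the 3 of smallest p. Smc2 reached 9.24, 9.50 and 10.00 after rCNT, 8.41, 8.96 and 8.90 after tCNT and 9.06, 8.65, 8.75 and 9.42 after BayTubes, and 8.94, 8.50 and 8.67 after SES and 9.18, 8.75, 8.77 and 8.77 after Graphite. Every exposed sample was above Ctrl. Smc2 rose by 1.47 ± 0.23 after rCNT and 0.89 ± 0.19 after BayTubes. Other condensin subunits, Ncapg2 and Ncaph, rose by 1.57 ± 0.26 and 1.01 ± 0.18 after rCNT. Ncapg, one more, passed the 40th percentile in 2 samples only. Ncapg read 5.32, 5.22 and 5.20 in Ctrl and 5.44, 5.89 and 6.05 after rCNT, each rCNT sample above each Ctrl sample. Ncapg came to 5.31, 5.39 and 5.39 after tCNT, 5.51, 5.25 and 5.39 after SES and 5.36, 5.20, 5.53 and 5.66 after BayTubes, and to 5.12, 5.43, 5.40 and 5.33 after Graphite and 5.53, 5.45, 5.24 and 5.32 after fullerene, overlapping Ctrl after each of these.

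Foxm1, the transcription factor that switches on many of these genes, read 7.00, 7.15 and 7.04 in Ctrl and 8.72, 8.84 and 8.80 after rCNT. Foxm1 read 7.90, 8.10 and 7.88 after tCNT and 8.37, 7.32, 7.58 and 8.24 after BayTubes. Foxm1 read 7.30, 7.38 and 7.43 after SES, 7.75, 7.45, 7.25 and 7.52 after Graphite and 8.23, 7.55, 7.23 and 7.28 after fullerene. Each exposed sample was above each Ctrl sample. It rose by 1.60 ± 0.24 after rCNT and 0.79 ± 0.20 after BayTubes (adjusted p = 0.0289), and 0.83 ± 0.24 after tCNT had an adjusted p of 0.134.

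**Figure D4:**
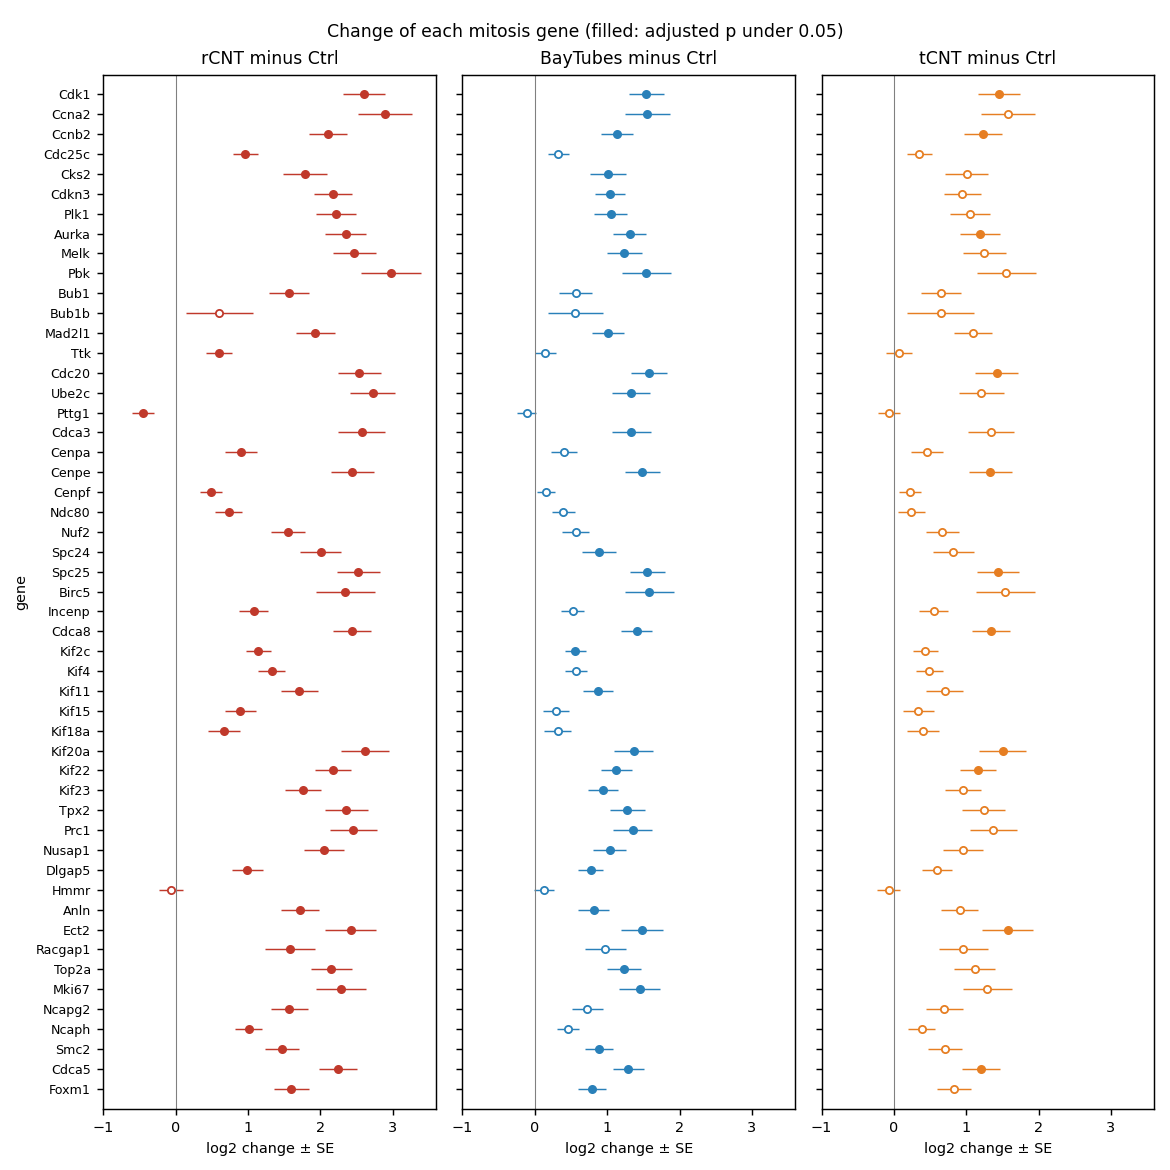
Log2 change from Ctrl ± SE (horizontal axis) of each tested mitosis gene after rCNT, BayTubes and tCNT, with filled points for genes called at an adjusted p under 0.05. After rCNT the points reach 2.98 for Pbk, and the points of Pttg1 and Hmmr lie below 0.

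The materials were then compared with each other, all given at 1 dose and sampled at 1 time. Over the 6 materials 43 of the 51 members differed by limma's F test (background 16.5%). For the 15 pairs of materials, p-values were adjusted over all genes and all pairs together, and 178 combinations of member and pair passed. The shares of all genes called are given pair by pair below. Every one of the 178 combinations had rCNT as the higher of the pair.

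Many members were higher after rCNT than after each other material. With rCNT, 23 members were higher than after tCNT (background 4.66%, median 0.88) and 26 higher than after BayTubes (5.76%, median 0.91). Against SES, Graphite and fullerene, 40 (7.07%, median 1.36), 44 (8.65%, median 1.30) and 45 (8.34%, median 1.28) were higher. In 18 members, among them Cdk1, Plk1, Aurka, Ube2c, Cdca8 and Tpx2, rCNT was higher than each of the other 5 materials. How many of all tested genes passed all 5 pairs was not counted. Another 13 members passed 4 pairs and 9 passed 3, among them Mki67. By limma Mki67 differed from tCNT by 0.99 (adjusted p = 0.113) and from BayTubes by 0.84 (adjusted p = 0.181), neither called. Ube2c differed by 1.52 (95% interval 0.88 to 2.16) from tCNT and by 1.39 (95% interval 0.78 to 2.01) from BayTubes, with adjusted p-values of 0.0053 and 0.00725. Cdc20 differed from tCNT by 1.12 (95% interval 0.50 to 1.74), and from BayTubes by 0.96 (95% interval 0.36 to 1.55) without a call (adjusted p = 0.0629). Bub1b, Pttg1, Cenpf, Kif18a and Hmmr differed from no other material after rCNT. Bub1 was higher after rCNT than after 4 of the other 5.

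The counts against tCNT and BayTubes moved with single samples. The 23 against tCNT became 2 without tCNT 7, 4 without rCNT 6, 11 without rCNT 4 and 13 without tCNT 9. The 26 against BayTubes became 4 without BayTubes 19, 5 without rCNT 6, 9 without rCNT 4 or BayTubes 18 and 16 without rCNT 5. With array as a fixed term, 0 members differed from tCNT, SES, BayTubes or fullerene and 3 from Graphite. Array weights left 0 against tCNT and against BayTubes and 27 against Graphite.

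In the other 10 pairs limma called 0 members. In either direction it called 0.708% of all genes for tCNT against SES, 0.587% against BayTubes, 0.92% against Graphite and 0.817% against fullerene. The shares were 0.708% for SES against BayTubes, 0.121% for SES against Graphite, 0.436% for SES against fullerene, 1.31% for BayTubes against Graphite, 0.297% for BayTubes against fullerene and 0.605% for Graphite against fullerene. At an unadjusted p under 0.05 by limma, members are given with the count among all 16519 genes in brackets. Between SES and BayTubes 22 members differed (960), between BayTubes and fullerene 20 (806) and between tCNT and SES 17 (889). Between BayTubes and Graphite 14 did (2290), between tCNT and fullerene 9 (932), between tCNT and Graphite 4 (1824) and between SES and Graphite 1 (1023). The count was 0 in tCNT against BayTubes (585), SES against fullerene (719) and Graphite against fullerene (1301). Between tCNT and BayTubes the median difference was -0.02, with Cdk1 at -0.09 (95% interval -0.62 to 0.44), Ube2c at -0.13 (95% interval -0.70 to 0.44) and Mki67 at -0.16 (95% interval -0.77 to 0.46). Graphite is stacked sheets of carbon and a fullerene a closed cage, and between them Cdk1 differed by 0.09 (95% interval -0.39 to 0.58), Cenpe by 0.22 (95% interval -0.28 to 0.72) and Top2a by 0.09 (95% interval -0.39 to 0.57). Differences were larger in some other pairs. Over the 51 members the median was 0.38 for BayTubes against fullerene, with 48 differences above 0, and -0.48 for SES against BayTubes, with 3 above 0. Cdk1 differed by 0.67 (95% interval 0.16 to 1.18) and -0.66 (95% interval -1.19 to -0.14) in these pairs, without a call. Such intervals, which are not adjusted, and not the missed threshold, bound how far the materials of a pair may differ in these genes. Slide 2 holds 1 BayTubes, 1 fullerene and 1 SES sample, so within it these are single samples set against each other or against 2 Graphite samples. Group and dye separate on slide 2 only through Graphite 13 and Graphite 14, and the spread comes from the 2 Ctrl samples alone. A fit within slide 2 did call members in some of these pairs, but single samples cannot show a difference between groups. Leaving out fullerene 21 gave 7 between BayTubes and fullerene, and leaving out BayTubes 19 gave 5 between SES and BayTubes.

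On 6 arrays the 2 samples hybridised together came from groups that differ in the calls above, and their direct differences were taken. Each sets one dye against the other: the first sample was in Cy5 in 4 pairs, with medians of 1.07 to 1.53, and in Cy3 in 2, with 0.840 and 0.494, so dye was not balanced. The median over the 51 members was 1.53 for rCNT 6 over Graphite 14, 1.38 for rCNT 4 over Graphite 16 and 0.840 for rCNT 5 over fullerene 21. Against Ctrl on the same array it was 1.20 for BayTubes 20, 1.07 for Graphite 13 and 0.494 for BayTubes 18. Between 45 and 50 of the 51 members were positive in each pair, with all genes at 46.1% to 53.7% positive. Cdk1 was higher in the first of each pair by 0.952 to 2.14.

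Of the members with a spot, 17 had further spots, 36 in all, and 35 of those had the same sign after rCNT as the spot used. Many of the 36 were repeats for Bub1 and Cdca5. In plain group means, the other Cdk1 spots differed by -0.07 and 0.52, against 2.66 on the spot used. Other spots of Cdca8, Tpx2, Ect2 and Nuf2 differed by 0.78, 0.50, 0.65 and 0.19, against 2.56, 2.45, 2.34 and 1.75. Those of Ube2c, Mki67 and Racgap1 differed by 2.76, 2.61 and 1.63, against 2.78, 2.34 and 1.59.

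Other genes of the cell cycle, in lists drawn up from their known roles with earlier results of these data known, followed the members in part. Over all tested genes the shares called higher were 12.4% after rCNT, 2.16% after BayTubes, 0.684% after tCNT, 0.545% after Graphite and 0.151% after fullerene. Of 71 other tested mitosis genes, 53 were higher after rCNT, 27 after BayTubes, 3 after tCNT, 2 after Graphite and 1 after fullerene. None was lower, and the median after rCNT was 1.19. Depdc1b rose by 1.55 ± 0.17 and Tacc3, a spindle stabiliser, by 1.88 ± 0.21 after rCNT, and after tCNT Nek2, a centrosome kinase, by 1.11 ± 0.22 and Spag5, which recruits spindle factors, by 1.26 ± 0.26. Wee1, the kinase that restrains Cdk1, and Spag5 led after BayTubes (1.19 ± 0.13 and 1.37 ± 0.22), Wee1 and the centromere gene Cenpu after Graphite (0.77 ± 0.14 and 0.56 ± 0.13), and Wee1 was the gene called after fullerene (1.33 ± 0.14). Of 41 S phase genes, 31 were higher after rCNT, 18 after BayTubes and 3 each after tCNT and Graphite (median after rCNT 0.81). Ccne1, the cyclin of entry into S phase, rose by 1.81 ± 0.19 after rCNT. Pole, a DNA polymerase subunit, was called after rCNT, BayTubes, tCNT and Graphite, at 1.77 ± 0.20, 1.09 ± 0.16, 0.98 ± 0.19 and 0.82 ± 0.17 in that order. Beside it stood Tk1, a thymidine kinase, after tCNT (0.95 ± 0.22), Uhrf1, which helps copy DNA methylation, after BayTubes (1.60 ± 0.26) and Cdt1, a licensing factor of replication, after Graphite (0.60 ± 0.14). Of 21 transcription regulators of the cycle, 6 rose after rCNT, including Mybl2, which encodes B-Myb (1.24 ± 0.13), and E2f7, a repressor of the cycle's genes (1.85 ± 0.22). After BayTubes 4 rose, after Graphite 3 and after tCNT and fullerene 1 each. E2f7 rose by 1.12 ± 0.22 after tCNT, 1.25 ± 0.18 after BayTubes and 0.95 ± 0.20 after Graphite. Lin9, a subunit of the complexes that hold B-Myb, rose by 0.92 ± 0.18 after rCNT, 0.76 ± 0.15 after BayTubes, 0.77 ± 0.16 after Graphite and 0.86 ± 0.17 after fullerene.

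Genes outside the S to M phase program had medians near that of all genes after rCNT. Of all genes 12.4% were higher and 9.41% lower there. Of 16 G1 cyclins and inhibitors, 3 were higher and 2 lower after rCNT, with a median of 0.01; Myc rose by 0.99 ± 0.20 and Cdkn2d, an inhibitor of the G1 kinases, by 0.48 ± 0.10. Of 22 cohesin and anaphase-promoting complex subunits, which are made throughout the cycle, 0 were higher and 1, Nipbl, was lower (fell by 0.73, SE 0.17), and limma called none after the other materials. At an unadjusted p under 0.05 there were 2 of these 22 after rCNT, against 5731 of all 16519 genes. After SES 0 genes of any of these lists were called. At an unadjusted p under 0.05 there were 14 of 71 other mitosis genes and 11 of 41 S phase genes, against 747 of all 16519 genes.

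**Figure D5:**
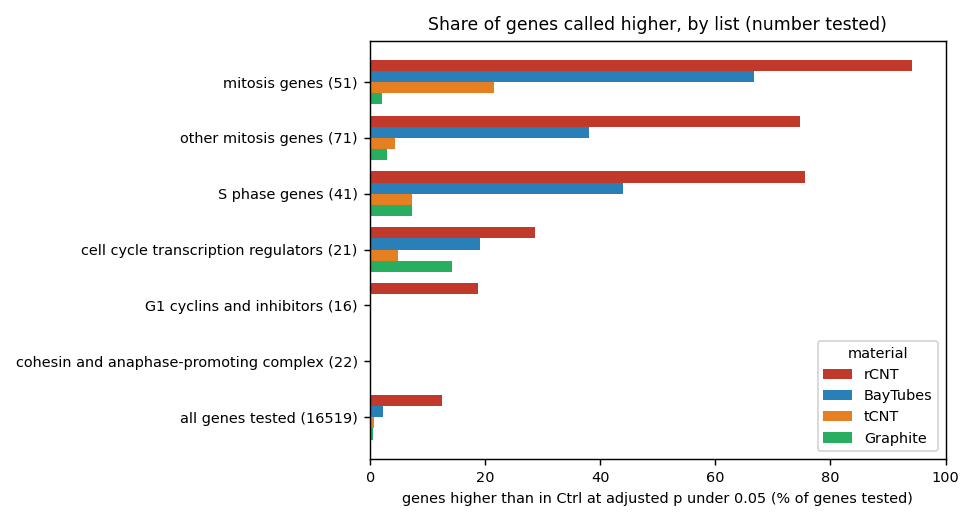
Share of tested genes called higher (horizontal axis, percent) in the mitosis genes and 5 other cell cycle lists, with all tested genes beside them, after rCNT, BayTubes, tCNT and Graphite. The mitosis genes, the other mitosis genes and the S phase genes have the highest shares after rCNT, and the cohesin and anaphase-promoting complex genes have 0.

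Some markers of cell types also changed after rCNT, and their part in the rise of the mitosis genes was not tested. Over all tested genes, 12.4% were higher and 9.41% lower after rCNT. The shares were 0.684% and 0.0242% after tCNT and 2.16% and 1.02% after BayTubes. Counts of 1 or 2 genes of a list after rCNT are not read as a change of that cell type. Monocyte and recruited macrophage markers, 12 tested, had 7 higher and 1 lower after rCNT, and the mean log2 value of the list ran from 10.59 to 10.94 after rCNT, 9.27 to 9.29 in Ctrl, 9.77 to 10.01 after tCNT and 9.42 to 10.34 after BayTubes. Arg1 rose by 4.54 after rCNT while Csf1r, the receptor that defines the lineage, differed by -0.06. None of these 12 was called after the other materials. The list reached 9.48 to 9.71 after SES, 9.44 to 9.82 after Graphite and 9.35 to 10.37 after fullerene. Alveolar macrophage markers ran from 11.85 to 11.93 in Ctrl and from 12.01 to 12.43 after rCNT, with 5 of 11 higher. Their differences after rCNT went both ways: 6 of the 11 were above 0, the median was 0.0006 and the lowest -0.63. Ciliated and multiciliated cell markers ran from 10.74 to 10.80 in Ctrl, 11.35 to 11.39 after rCNT, 11.21 to 11.49 after tCNT and 11.18 to 11.34 after BayTubes, with 5, 3 and 4 of 8 higher and, after rCNT, 1 lower. Within that list Ccno, which drives the making of many centrioles and was the highest in all 3 comparisons, rose by 1.85, 1.24 and 1.59, while Mcidas, which acts in the same step, differed by -0.60 after rCNT. Airway secretory markers ran from 11.94 to 12.35 in Ctrl, 13.16 to 13.65 after rCNT, 13.01 to 13.22 after tCNT and 12.17 to 13.03 after BayTubes. Of these 8, 3 were higher and 1 lower after rCNT, 2 higher after tCNT and 1 higher after BayTubes.

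Among T cell markers 4 of 10 rose after rCNT and among neutrophil markers 2 of 11 with 1 lower (background 12.4% higher and 9.41% lower). Eosinophil and basophil markers had 4 of 6 higher and 1 lower, with the defining Epx and Mcpt8 not above the 40th percentile in any sample. Of 8 endothelial markers 6 were lower after rCNT, with a list mean of 12.14 to 12.37 against 12.88 to 12.98 in Ctrl, and 4 of 8 alveolar type 1 markers, with 12.80 to 13.09 against 13.47 to 13.54. Alveolar type 2 markers had 2 of 8 lower, red cell markers 1 of 4 lower, fibroblast markers 1 higher and 2 lower of 8, basal cell markers 1 higher and 1 lower of 5 and B cell markers 1 of 7 higher. After rCNT limma called none of 7 natural killer cell and none of 3 thymocyte markers. At an unadjusted p under 0.05 there were 0 and 1, against 5731 of all 16519 genes. Of the 5 thymocyte and germinal centre genes with a spot, 3 passed the filter, and of the 5 red cell and precursor genes 4 did. Rag1 of the first list and Klf1 of the second were not above the 40th percentile in any sample.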

How the data were processed

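Whole-lung RNA was labelled with Cy3 or Cy5 and hybridised in pairs on 12 two-colour Agilent mouse arrays on 3 slides, and each of the 24 samples is 1 channel. The authors deposited log2 values for 62976 spots; the submitters' processing notes name Agilent Feature Extraction and limma, and their versions, the background correction and the normalization are not given in the sources used here. When each sample's values were sorted, samples differed by no more than 0.0856 at any rank, and a change in total RNA cannot be seen. The platform annotation, updated through RefSeq, named 31465 spots as 20738 genes.

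The spot with the highest mean stood for each gene, and 16519 genes above the 40th percentile (5.69 to 5.75) in at least 3 samples were tested in R 4.3.3 with limma 3.58.1 and statmod 1.5.0: group and dye as fixed terms, array as a random block (correlation 0.399), 16 residual and 3.54 prior degrees of freedom, Benjamini-Hochberg adjustment. The scripts were tested on simulated data. Alternatives changed the dye term, block, filter, spot rule, variance prior, weights, normalization, slide and samples. The members and lists were chosen with earlier results of these data known. By rule, values in every sample are given for leading members of each role, for the 3 members of smallest p, highest and lowest change per comparison and for members below the filter, and the other cell cycle lists give their 2 called genes of smallest p per material; marker genes named singly were chosen after their values were seen.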

Additional observations from a re-analysis of the deposited data

Results flagged for a closer look

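Among the groups of 4 samples, the highest or lowest sample of each member was set against the other 3 by Dixon's test, for 156 combinations of gene and group. Chance alone gives about 1 in 20 such results, and 11 were found.

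Graphite 13 stood above the other 3 Graphite samples for 5 members: Ccna2 at 9.35 (others 8.31 to 8.44), Cks2 at 8.55 (7.11 to 7.21), Aurka at 8.95 (8.39 to 8.46), Bub1 at 7.95 (6.96 to 7.09) and Smc2 at 9.18 (8.75 to 8.77). Graphite 15 lay below the others for Ndc80, at 6.61 (7.05 to 7.13), and for Ncaph, at 9.91 (10.17 to 10.20). Fullerene 21 stood above the other 3 fullerene samples for Nuf2 at 6.74 (6.01 to 6.12), Kif2c at 6.35 (5.80 to 5.89), Kif4 at 7.30 (6.50 to 6.60) and Nusap1 at 8.31 (7.38 to 7.46).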

How the results depend on the processing

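The sample numbers in the titles are unique, so they pair no samples across groups; the arrays pair samples, and array is the block of the fit. In the counts below, calls higher and lower are added. Fits within slide 1 have 1 Ctrl sample. Within slide 2 group and dye separate only through Graphite 13 and Graphite 14, and the spread comes from the 2 Ctrl samples. The 49 members called after rCNT were 32 when array was a fixed term and 45 to 47 with 1 sample left out. The 11 after tCNT were 0 with array as a fixed term, 17 with a filter at the 60th percentile, 25 with array weights, 5 without the array of rCNT 4 and Graphite 16, 1 without arrays 1 and 2 (chosen after seeing the data), 0 within slide 1 and 0 to 28 with 1 sample left out. The 34 after BayTubes were 0 with array as a fixed term, 0 within slide 1, 19 within slide 2 and 18 to 36 with 1 left out. The 1 after Graphite was 0 with array as a fixed term, without the block, without a filter, with cyclic loess, with array weights, without the array of rCNT 4 and Graphite 16, with only the groups compared and within slide 1; it was 2 without a dye term or with a robust prior, 4 at the 60th percentile, 6 with slide as a term or within slide 2, 9 without arrays 1 and 2, and 0 to 9 with 1 left out. Fullerene had 3 with array weights. The 43 members of the F test were 28 with array weights and 2 when array was a fixed term. The 178 pair calls were 88 and 3 under the same settings and 113 to 212 with 1 left out, the lowest without rCNT 6. The causes were not tested.

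The sign of Hmmr after rCNT turned to 0.117 without the array of rCNT 4 and Graphite 16, 0.14 without arrays 1 and 2, 0.0341 with only the groups compared and 0.19 within slide 2, and ran from -0.357 to 0.117 with 1 sample left out. Bub1b after rCNT turned to -1.04 within slide 1 and ran from -0.0954 to 1.10 with 1 sample left out, the lowest without rCNT 5. Within slide 2 Cenpf after rCNT turned to -0.18, Birc5 after BayTubes to -0.0816 and Mad2l1 after fullerene to -0.10. Of the values of single genes, 1945 kept their direction and side of the threshold, 356 lost a call, 18 gained one and 11 turned. SES had 0 calls under every setting run. Signal over background limits Ttk, Cenpf and Cdc25c, which lie near the filter.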

Other observations

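Wee1, the kinase that restrains Cdk1 and so delays mitosis, is 1 of the other mitosis genes. It read 7.86, 7.97 and 8.40 in Ctrl, 8.41, 8.73 and 8.82 after rCNT, 9.44, 9.46, 9.21 and 9.34 after fullerene and 9.13, 9.13, 9.09 and 9.53 after BayTubes. All fullerene and BayTubes samples were above all rCNT samples, an order that Cdk1 did not share. By limma Wee1 rose by 1.33 after fullerene (adjusted p = 5.19e-05), 1.19 after BayTubes (adjusted p = 2.95e-05), 0.77 after Graphite (adjusted p = 0.0132) and 0.64 after rCNT (adjusted p = 0.00561). Between materials, in the same fit and with p-values adjusted over all genes and 15 pairs, rCNT against fullerene differed by -0.69 ± 0.13 (SE, adjusted p = 0.00355) and rCNT against BayTubes by -0.55 ± 0.14 (adjusted p = 0.0305).

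The scatter of samples around their fitted values differed. The residual SD over the genes tested was 0.495 in rCNT 4, 0.430 in Graphite 16, which shares its array, and 0.389 in Graphite 13, against 0.160 to 0.313 in the other 21 samples.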
